A study of Mus musculus with 8 samples.

Results

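Cohesin is a ring-shaped protein complex that holds DNA, and 10 genes of its core, its regulators and its partner Ctcf were followed through mouse embryos: Smc1a, Smc1b, Smc3, Rad21, Rec8, Stag1, Stag2, Wapl, Nipbl and Ctcf. They were chosen by name, and all 10 were among the 24921 genes of the deposited table. RNA of C57BL/6 embryos was sequenced after amplification of full-length cDNA (Smart-seq) in 8 libraries, with 2 for each of the group labels 2C, 8C (taken here to mean embryos of 2 and of 8 cells), CX22 and CX45. Neither the agent, dose and time behind the names CX22 and CX45 nor the age, genotype or number of embryos per library is given in the sources used here. No group was named as a control, so all 6 pairs were compared. By its title the study asked how RNA polymerase I activity bears on the architecture of chromatin.

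The ring is built from a pair of SMC ATPases (Smc3 with Smc1a or its germ-line paralog Smc1b) closed by a kleisin (Rad21, or Rec8 in meiosis), to which a STAG subunit (Stag1 or Stag2) binds. Nipbl loads the ring and drives loop extrusion, Wapl releases it from DNA, and the zinc-finger protein Ctcf halts it at its binding sites, which sets the borders of chromatin domains. The same ring holds sister chromatids together until they separate. Oocytes carry the meiotic subunits, while divisions of the embryo use the mitotic ones.

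Levels are in FPKM, fragments normalized for transcript length and library depth, so that listed values of genes of different length could be set side by side. Such values need not give the true abundance of one gene relative to another. Gapdh, which nearly all cells express, reached 0.519 FPKM at most. All 10 members passed the filter of 1 FPKM in at least 2 libraries that left 11873 genes to test. Rec8 passed only through the CX45 libraries, just above the filter at 1.28 and 1.11 FPKM, against 0 in all others. Its test therefore supports nothing, and counts are given without it as well. Implied depth ran from 9.73 to 20.13 M fragments (M, the prefix mega) per library. For the median gene, 2C replicates 1 and 2 were apart by about what sampling noise gives (chi-square ratio 1.20, against 29.9 in 8C, 50.4 in CX45 and 159 in CX22) and were counted as 1 sample, so 2C has no SD. The CX22 libraries stood furthest apart, with 333 genes above 10 FPKM in one and at 0 in the other. Nothing in the labels says that replicates came from separate collections of embryos. The p-values set differences against the spread between these libraries, which may be technical. That spread comes from 8C, CX22 and CX45 alone, since 2C was counted as 1 sample. A gene rose or fell where limma gave a Benjamini-Hochberg adjusted p under 0.05 over all tested genes and a log2 change of at least 1. In bulk samples, fewer cells of a type and less RNA per cell cannot be told apart.

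Marker genes were read beside these values. The 5 oocyte and early embryo markers summed to 2560 and 2570 FPKM in 2C, 1920 and 2490 FPKM in CX22, 131 and 150 FPKM in CX45, and 24.1 and 27.9 FPKM in 8C. Most of that sum was Oosp1 and Bmp15 in 2C and CX22, while Zp3 was lowest in 8C (13.3 and 13.4 FPKM) and reached 54.4 FPKM in CX45. The 3 markers of 2-cell activation summed to 190 and 198 FPKM in 2C, 220 and 250 FPKM in CX22, 1.73 and 1.92 FPKM in 8C, and 32.7 and 211 FPKM in CX45, whose libraries stood apart. The 6 markers of the 8-cell and later embryo summed to 1280 and 1610 FPKM in 8C, 902 and 1200 FPKM in CX45, and at most 72.2 FPKM in 2C and CX22, with Cdx2 listed at 0 throughout. Most of that sum was Dppa2 and Dppa4 in 8C and CX45. Pou5f1 was at 7.78 and 16.2 FPKM in 8C, 0 and 2.16 FPKM in CX45, and 0 and 2.32 FPKM in CX22. Nanog was at 20.26 and 18.25 FPKM in 8C and 6.53 and 4.54 FPKM in CX45, and Tead4 at 20.04 and 24.1 FPKM and at 14.5 and 17.7 FPKM. Cumulus cell markers summed to 10.1 FPKM at most, with Amh, Fshr and Lhcgr at 0 in every library. Sperm markers summed to 42.9 FPKM at most, in CX22 replicate 1, with Tnp2 at 0 throughout. Nearly all of that was Tnp1, at 42.2 FPKM there and at 0 in the other 7 libraries. Prm2 made up most of the sum in CX22 replicate 2 (28.7 FPKM) and was at 0.655 FPKM in replicate 1 and 17.1 and 16.7 FPKM in 2C. The blood list was highest in CX45 (315 and 374 FPKM, against 21.1 to 106 FPKM elsewhere), most of it Hba-a1 (286 and 347.1 FPKM). In that list Cd52 was at 18.8 and 19.6 FPKM in CX45, 10.8 and 2.45 FPKM in 8C and at most 0.493 FPKM elsewhere, Lyz2 was between 7.45 and 11.8 FPKM in CX45 and CX22 and at most 1.92 FPKM elsewhere, and Hbb-b1 and Ptprc stayed under 1 FPKM. The part of these RNAs in the results below was not tested.

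The stretches of DNA before the starts of 4 members are shown because these genes are the pair of SMC1 paralogs, their partner Smc3 and Wapl, the member that differed most between 2C and 8C on the log2 scale. Each is the 250 bases up to the annotated start, 5′ to 3′ on the gene's strand, from RefSeq sequences of build GRCm38.p6, in which 7 of the 10 members had an entry. Capitals mark matches on either strand to a GC box, a CCAAT box or an E2F-type motif, whose letters are given after the sequences.
Smc1a: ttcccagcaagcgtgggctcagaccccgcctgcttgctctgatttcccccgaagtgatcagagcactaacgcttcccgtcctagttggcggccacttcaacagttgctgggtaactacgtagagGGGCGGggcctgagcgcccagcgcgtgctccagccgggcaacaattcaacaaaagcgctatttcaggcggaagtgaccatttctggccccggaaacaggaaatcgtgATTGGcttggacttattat
Smc3: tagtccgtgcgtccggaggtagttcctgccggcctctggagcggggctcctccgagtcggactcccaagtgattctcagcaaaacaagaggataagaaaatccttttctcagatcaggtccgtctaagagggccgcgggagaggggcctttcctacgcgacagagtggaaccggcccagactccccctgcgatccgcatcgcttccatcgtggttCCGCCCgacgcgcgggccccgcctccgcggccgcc
Smc1b: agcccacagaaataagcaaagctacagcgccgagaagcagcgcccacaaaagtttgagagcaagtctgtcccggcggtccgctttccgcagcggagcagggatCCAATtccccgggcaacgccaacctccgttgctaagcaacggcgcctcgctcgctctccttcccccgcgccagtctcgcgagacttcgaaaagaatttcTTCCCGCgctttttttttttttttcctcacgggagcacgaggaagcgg
Wapl: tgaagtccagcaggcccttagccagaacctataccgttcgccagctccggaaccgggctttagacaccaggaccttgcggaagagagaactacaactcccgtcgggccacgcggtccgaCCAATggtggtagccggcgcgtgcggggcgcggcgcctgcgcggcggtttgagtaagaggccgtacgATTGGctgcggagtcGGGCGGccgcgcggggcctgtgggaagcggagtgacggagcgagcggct
They lie at chrX:152016178-152016427 (plus strand, Smc1a), chr19:53600146-53600395 (plus, Smc3), chr15:85131958-85132207 (minus, Smc1b) and chr14:34673678-34673927 (plus, Wapl). The GC box, spelled GGGCGG, was found in 1 place each before Smc1a, Smc3 and Wapl and in none before Smc1b, and 32.7% of all 32851 promoter windows of this length held it. For the E2F-type motif the letters searched were GCGGGAA, and they were found once before Smc1b and not in the other 3, against 3.82% of all windows. CCAAT itself stood once before Smc1a and Smc1b and at 2 places before Wapl (33.8% of all windows). An E-box (CACGTG, 6.02% of windows) was searched too and matched none of the 4.

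In 8C against 2C, Stag2 and Smc3 rose and Wapl fell to 0.1 of its 2C level, while Smc1b, Ctcf, Nipbl and Stag1 were lower and Smc1a and Rad21 higher in both 8C libraries without passing limma. Of the 10 members 3 were called, against 37.1% of all genes tested. These were 2 risen (16.3% of all genes rose) and 1 fallen (20.7% of all genes fell). The libraries did not overlap for the 9 members other than Rec8, which was listed at 0 in all 4, but the same held for 89.8% of all genes tested. The median of these 9 members was -1.03 on the log2 scale (-0.52 for all 10 members), against -0.04 for all genes tested. With 4 of the 9 higher and 5 lower, the value of -1.03 is that of Ctcf, which was not called, and describes no common change.

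**Figure D1:**
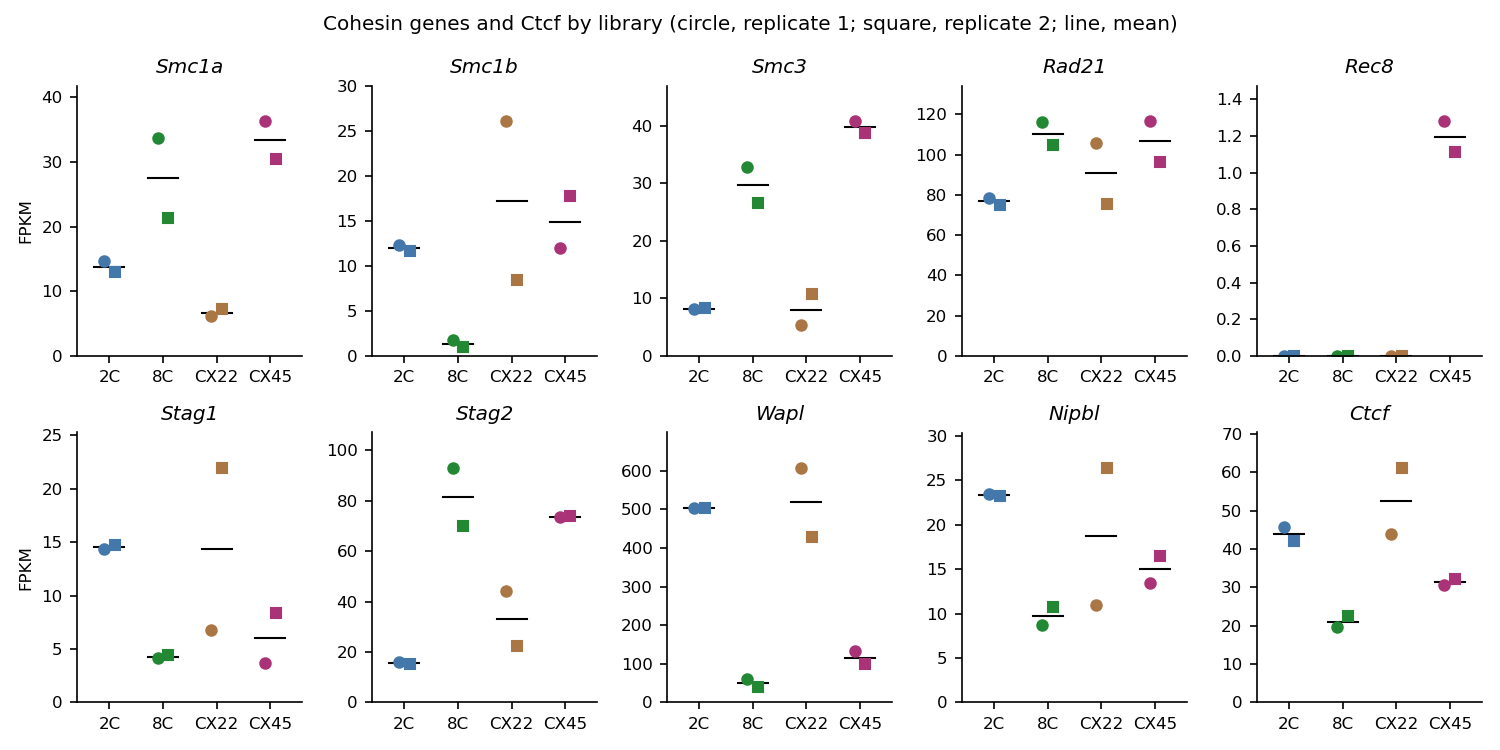
FPKM of each member in each library, by group, on a linear axis from 0 with a scale of its own in each panel (circle, replicate 1; square, replicate 2; line, mean). Wapl stands between 429 and 608 FPKM in 2C and CX22 and between 40.1 and 132 FPKM in 8C and CX45, and Smc1b is low in 8C alone.

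Smc3, the subunit common to mitotic and meiotic rings, was at 8.095 and 8.33 FPKM in 2C, 32.9 and 26.6 FPKM in 8C, 5.29 and 10.8 FPKM in CX22, and 40.8 and 38.8 FPKM in CX45. Both 8C and both CX45 libraries lay above every 2C and CX22 library. The rise from 2C to 8C was 1.73 ± 0.472 (log2, SE; limma adjusted p = 0.0454), close to the threshold. It was not called with the replicate block (adjusted p = 0.0752), with a pseudocount of 0.1, without the filter, with the highest entry per gene, or without either 8C or CX45 library (adjusted p from 0.0934 to 0.174). Smc3 lies on chromosome 19 at 53674886 to 53720321 in mm9, the build of the table (positions counted from 1).

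Smc1a, the SMC1 form of dividing cells (chromosome X, 148450971 to 148496516), was at 14.6 and 12.9 FPKM in 2C, 33.7 and 21.3 FPKM in 8C, 6.13 and 7.24 FPKM in CX22, and 36.3 and 30.4 FPKM in CX45. The order was CX22, 2C, 8C and CX45, and of the neighbours only 8C and CX45 overlapped. The difference between 8C and 2C was 0.91 ± 0.4 (log2, SE; limma adjusted p = 0.136).

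Smc1b, its meiotic paralog (chromosome 15, 84895119 to 84962387), went the other way, at 12.3 and 11.7 FPKM in 2C and 1.76 and 0.988 FPKM in 8C. It stood at 26.1 and 8.42 FPKM in CX22 and at 12.04 and 17.8 FPKM in CX45. The 8C libraries were thus the lowest of the 8, and the 2C, CX45 and CX22 levels overlapped. The log2 difference of 8C from 2C was -2.47 ± 0.76 (SE; limma adjusted p = 0.0611). It was called without CX22 replicate 1 (adjusted p = 0.0243) or replicate 2 (0.0233) and with 8 separate libraries (0.00872).

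Within a library, Smc1b made up 45.7% and 47.4% of the summed FPKM of the SMC1 pair in 2C and 4.965% and 4.43% in 8C. The CX22 shares were 81.0% and 53.8%, those of CX45 24.9% and 36.9%. Both CX45 libraries lay between the 8C and the 2C libraries in this share. In CX45 the Smc1a levels overlapped those of 8C, and the Smc1b levels those of 2C. These shares are given without a test, since 2 libraries against 2 cannot reach a p under 0.05 in an exact permutation test.

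**Figure D2:**
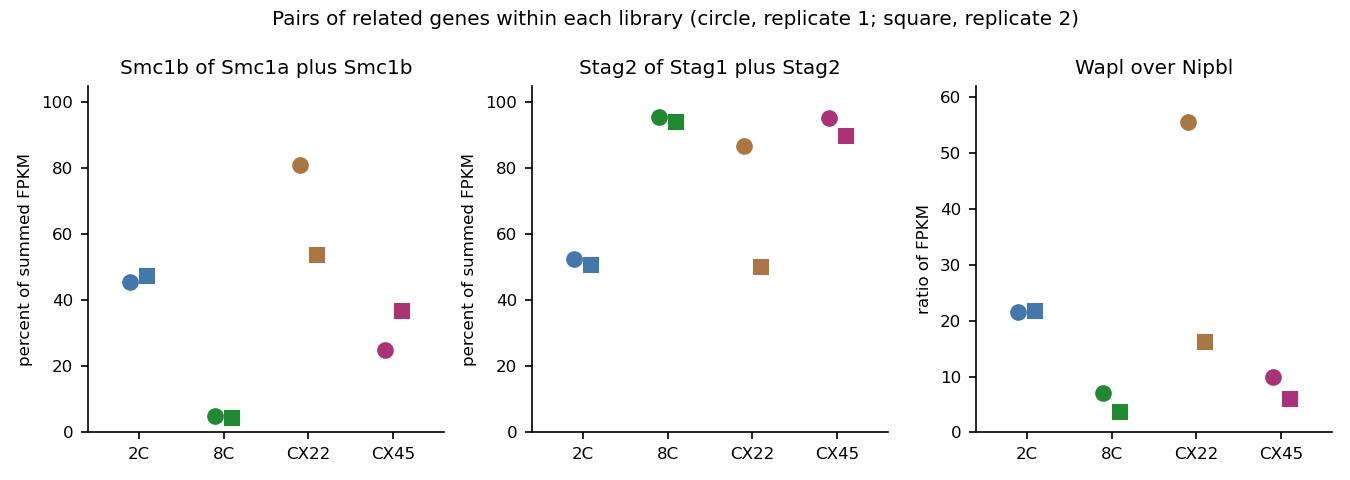
Percent of the summed FPKM of a pair taken by Smc1b (left) and Stag2 (middle), and the ratio of Wapl to Nipbl FPKM (right), per library (circle, replicate 1; square, replicate 2). The Smc1b share is under 5% in both 8C libraries and at least 24.9% in the other 6, and the CX22 libraries differ from each other in all 3 panels. Entries are summed per gene, on which the direction of the Stag2 shift from 2C to 8C depends.

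Rad21, the mitotic kleisin, had the smallest ratio of highest to lowest library of the members. It was at 78.4 and 75.2 FPKM in 2C, 116 and 104.7 FPKM in 8C, 106 and 75.6 FPKM in CX22, and 117 and 96.6 FPKM in CX45. Apart from 2C, which lay below 8C and CX45, the groups overlapped, and limma called no difference in any of the 6 comparisons (adjusted p from 0.246 to 0.966). It ranked above 92.3% of the tested genes in the 2C mean, and above 92.5% (8C), 93.4% (CX22) and 92.0% (CX45) in the others. Rad21 (chromosome 15, 51794150 to 51823306) exceeded Smc3 in each library, by 9.69 and 9.03 times in 2C, 3.53 and 3.93 times in 8C, 20.01 and 7.01 times in CX22, and 2.86 and 2.49 times in CX45.

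Rec8, the meiotic kleisin (chromosome 14, 56237003 to 56244232), was listed at 0 in the 2C, 8C and CX22 libraries and at 1.28 and 1.11 FPKM in CX45. A listed 0 need not mean absence, since Gapdh, which nearly all cells express, stood at 0 in 4 libraries itself and reached 0.519 FPKM at most elsewhere. Of the kleisin pair Rec8 made up 1.09% and 1.14% in the CX45 libraries. The level in CX45 is at the filter itself, and the table put it under one RefSeq entry in replicate 1 and another in replicate 2.

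Stag2, the main STAG form of many dividing cells (chromosome X, 39502589 to 39630363), was at 15.8 and 15.1 FPKM in 2C, 93.0 and 69.9 FPKM in 8C, 44.1 and 22.2 FPKM in CX22, and 73.5 and 73.9 FPKM in CX45. Every 8C and CX45 library lay above every CX22 library, and those above the 2C libraries. The rise to 8C was 2.31 ± 0.474 (log2, SE; limma adjusted p = 0.0221). It was not called without 8C replicate 1 (adjusted p = 0.106) or 2 (0.0838), or without CX45 replicate 1 (0.0579) or 2 (0.0581).

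Stag1, the paralog that takes the place of Stag2 in other rings (chromosome 9, 100543867 to 100858963), was at 14.3 and 14.7 FPKM in 2C, 4.145 and 4.42 FPKM in 8C, 6.75 and 22.0 FPKM in CX22, and 3.65 and 8.40 FPKM in CX45. Its groups overlapped with their neighbours in the order 8C, CX45, CX22, 2C, while 2C lay above 8C and CX45, and CX22 above 8C. The log2 difference of 8C from 2C, -1.56 ± 0.83 (SE), was not called by limma (adjusted p = 0.2005). The Stag2 share of the pair went from 52.5% and 50.6% in 2C to 95.7% and 94.0% in 8C, and was 95.3% and 89.8% in CX45. The CX22 libraries, at 86.7% and 50.3%, reached from near the one to near the other. These shares rest on summed entries, and the shift from 2C to 8C turned with the highest entry per gene. The share was then 100% in both 2C libraries, 93.65% and 92.0% in 8C, and 88.2% and 85.0% in CX45. In CX22, where the chosen Stag2 entry was at 0 in both libraries, it had no value in replicate 1 and was 0% in replicate 2.

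Wapl (chromosome 14, 35487114 to 35561169) was the most abundant member in 2C, at 503 and 504 FPKM, above 98.9% of the tested genes. It was at 61.3 and 40.1 FPKM in 8C, 608 and 429 FPKM in CX22, and 132 and 100.2 FPKM in CX45. The order was 8C, CX45, then 2C and CX22 together, the last pair being the only one to overlap. The fall from 2C to 8C was -3.32 ± 0.404 (log2, SE; limma adjusted p = 0.00612), and it was called under all 14 alternatives tried, with values from -3.82 to -2.96.

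Nipbl (chromosome 15, 8239824 to 8394463) was at 23.4 and 23.2 FPKM in 2C, 8.74 and 10.7 FPKM in 8C, 10.9 and 26.4 FPKM in CX22, and 13.4 and 16.5 FPKM in CX45. It was lowest in 8C, whose libraries lay below all others, and the log2 difference of -1.18 ± 0.585 (SE) from 2C was not called (limma adjusted p = 0.174). It was called without CX22 replicate 1 (0.0389) or 2 (0.0407), with 8 separate libraries (0.0495) and with the highest entry per gene (-1.86, 0.0386). The transcript of the release factor exceeded that of the loader in each library, with Wapl to Nipbl ratios of 21.5 and 21.7 for 2C, 7.02 and 3.73 for 8C, 55.6 and 16.3 for CX22, and 9.86 and 6.06 for CX45. Both 8C and both CX45 ratios lay below those of 2C and CX22.

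Ctcf (chromosome 8, 108160438 to 108206822) was at 45.8 and 42.1 FPKM in 2C, 19.5 and 22.5 FPKM in 8C, 43.9 and 61.2 FPKM in CX22, and 30.6 and 32.1 FPKM in CX45. CX45 lay between 8C and the overlapping pair of 2C and CX22, without overlap. The log2 difference of 8C from 2C was -1.03 ± 0.317 (SE; limma adjusted p = 0.0608) and was called without CX22 replicate 1 (0.0231) or 2 (0.0233) and with 8 separate libraries (0.0108). A predicted gene that overlaps the locus, Gm5914, was at 0.167 FPKM in 1 library and at 0 in the rest.

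Counts over the members in 8C against 2C moved with single libraries, and so did those over all genes. All genes called were fewer without an 8C or a CX45 library and more without a CX22 library. Without 8C replicate 1 or 2, or CX45 replicate 1 or 2, limma called 1 of the 10, Wapl. Without CX22 replicate 1 or 2 it called 6, with Smc1b, Nipbl and Ctcf added as fallen.

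**Figure D3:**
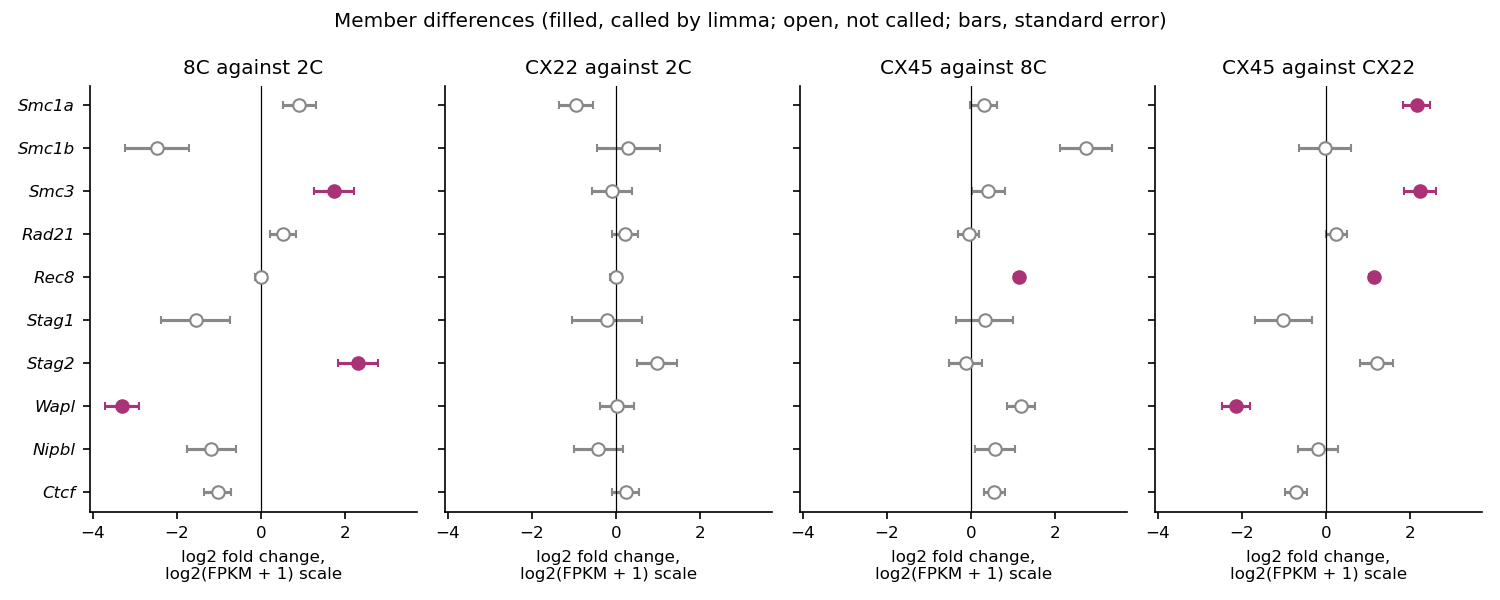
Log2 fold change of each member in 4 of the comparisons (points, with standard error; filled where limma called the gene), on the scale of log2(FPKM + 1). No member is filled in CX22 against 2C, and in CX45 against 8C the filled point is Rec8, which entered the test through CX45 alone.

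CX22 against 2C gave no member call. Limma called 0 of the 10, against 3.89% of all genes tested (0.598% rose and 3.29% fell). At an unadjusted limma p under 0.05 there were 0 members too, against 1921 of the 11873 genes. The median of the 9 members other than Rec8 was 0.02 and that of all genes -0.07 on the log2 scale. Smc1a and Stag2 were the members whose libraries did not overlap between the groups, as was so for 54.4% of all genes. Smc1a was lower by -0.95 ± 0.4 and Stag2 higher by 0.97 ± 0.474 (log2, SE; limma adjusted p = 0.363 and 0.442). The Wapl difference was 0.02 ± 0.404 and that of Ctcf 0.23 ± 0.317. Both lie under the log2 change of 1 that a call requires. Without CX22 replicate 1 the signs of Smc1b, Smc3, Rad21, Stag1, Wapl and Nipbl turned, and without replicate 2 that of Ctcf, none of them called.

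In CX45 against 8C limma called 0 of the 9 members other than Rec8 (at an unadjusted p under 0.05, 2 were higher and 0 lower). Of all genes 0.665% were called (0.463% rose and 0.202% fell), and 2286 of the 11873 had an unadjusted limma p under 0.05. Rec8 passed the threshold (adjusted p = 0.0462), as a gene that entered the test through CX45 alone. Smc1b showed the largest difference of the members, 2.74 ± 0.621 (log2, SE; higher in both CX45 libraries), with adjusted p = 0.118. Wapl was higher by 1.20 ± 0.33 (adjusted p = 0.16) and Ctcf by 0.56 ± 0.259 (adjusted p = 0.344), also without overlap between the libraries. Smc3 and Nipbl did not overlap either, at 0.41 ± 0.385 and 0.57 ± 0.478. Without Rec8, 5 of 9 members were thus higher in both CX45 libraries than in both 8C libraries, as were 40.4% of all genes. The median of the 9 was 0.41 and that of all genes 0.31. Smc1a, Rad21, Stag1 and Stag2 overlapped between the groups (Stag2 -0.13 ± 0.387). Oocyte markers were higher in CX45 than in 8C as well, as given above, and their part in the Smc1b and Wapl values was not tested.

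Between the CX groups themselves, CX45 against CX22 gave calls for 3 of the 9 members other than Rec8, against 36.4% of all genes (23% rose and 13.5% fell). Smc1a rose by 2.16 ± 0.327 (log2, SE; limma adjusted p = 0.0106) and Smc3 by 2.24 ± 0.385 (adjusted p = 0.014). Wapl changed by -2.14 ± 0.33 (adjusted p = 0.0111). Smc1b differed by -0.03 ± 0.621 and Ctcf by -0.71 ± 0.259, neither called. Stag2 was higher in both CX45 libraries by 1.21 ± 0.387 without a call (adjusted p = 0.0688), and was called without CX22 replicate 1 (0.0216), with 8 separate libraries (0.0296) and with the highest entry per gene (0.00389). Without CX45 replicate 1 Smc1a (adjusted p = 0.0568) and Smc3 (0.0736) were not called, and without CX45 replicate 2 Smc3 (0.0692) and Wapl (0.062) were not. All genes leaned upward in this comparison, by a median of 0.47. Risen genes made up 63.1% of calls, and 49% after quantile normalization, which lowered the median by 0.41 and left Smc1a, Smc3 and Wapl called. After it Ctcf was called too (log2 -1.14, limma adjusted p = 0.0363).

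The remaining pairs share their libraries with those above and are given for completeness. CX45 against 2C had 3 calls among the 9 members other than Rec8 (29.8% of all genes, 16.2% risen and 13.6% fallen), with Smc3 at 2.15 ± 0.472, Stag2 at 2.18 ± 0.474 and Wapl at -2.12 ± 0.404 on the log2 scale (SE; limma adjusted p = 0.032, 0.0311 and 0.023). None of the 3 was called without either 8C or either CX45 library (adjusted p from 0.053 to 0.11). Smc3 was not called with the replicate block (0.0588), nor Wapl with the highest entry per gene (0.104). CX22 against 8C had 6 (41.3% of all genes, 19.9% risen and 21.4% fallen): Smc1b at 2.77 ± 0.621, Wapl at 3.34 ± 0.33 and Ctcf at 1.27 ± 0.259 were higher in CX22, and Smc1a at -1.86 ± 0.327, Smc3 at -1.83 ± 0.385 and Stag2 at -1.34 ± 0.387 lower. Of these limma still called Wapl alone without 8C replicate 1, and Smc1a and Wapl without 8C replicate 2. Without CX45 replicate 1 or 2 it still called Smc1a, Wapl and Ctcf. Over all genes, too, fewer were called without an 8C or a CX45 library. The Stag2 call (adjusted p = 0.0483) was lost in 8 of 14 alternatives, among them a pseudocount of 0.1 (0.0521), no filter (0.0779), quantile normalization (0.0902) and leaving out CX22 replicate 2 (0.0677), and the Ctcf call with the highest entry per gene (0.286).

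The table held several RefSeq entries for 6 of the members, and how FPKM was split among them varied between replicates. Both entries of Ctcf span the same locus. In 2C the whole signal was under NM_001358924, at 45.8 and 42.1 FPKM, with NM_181322 at 0, and the same held in CX22. In 8C the entries were near each other (9.57 and 13.2 FPKM against 9.97 and 9.33 FPKM). In CX45 replicate 1 all 30.6 FPKM were under NM_181322, and in replicate 2 the entries held 13.6 and 18.5 FPKM. Stag1 in CX22 was wholly under NM_001357264 in replicate 1 (6.75 FPKM) and wholly under NM_009282 in replicate 2 (22.0 FPKM). The entry of Nipbl named NM_201232 was at 0 in 2C and in CX22 replicate 1 and between 3.63 and 9.03 FPKM in the other 5 libraries. Summed values were therefore used throughout. With the highest entry alone standing for its gene, Stag2 in CX22 against 2C turned to -2.74 (limma adjusted p = 0.0414). That entry was chosen by its mean over all 8 libraries and was at 0 in both CX22 libraries. Another Stag2 entry held 32.5 and 15.8 FPKM there.

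**Figure D4:**
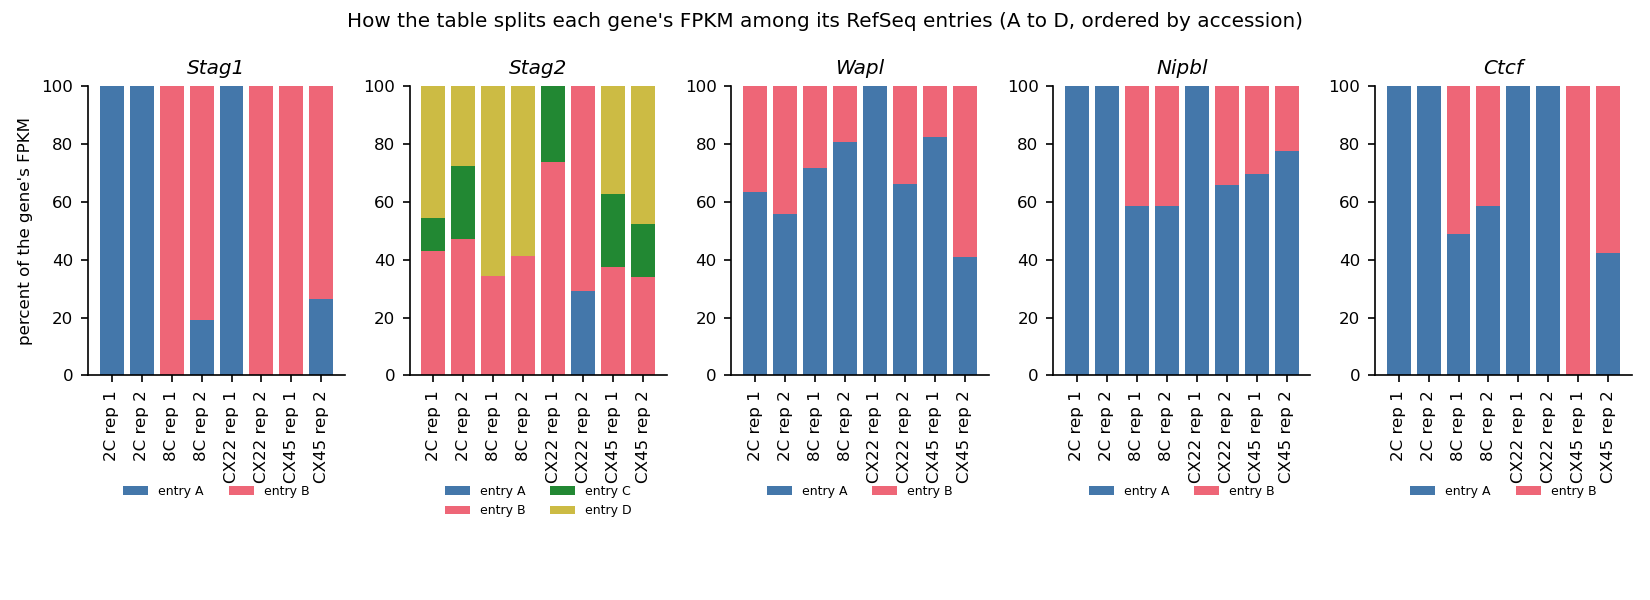
Percent of the FPKM of 5 members assigned to each of their RefSeq entries in each library (bars stacked to 100, entries lettered by accession, entries at 0 in every library left out). The split differs between replicates of the same group in CX22 and CX45, for Stag1 from all of one entry to all of another in CX22.

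Other genes that load, release, acetylate, cut or protect cohesin, or that share in looping, formed 4 lists of 31 genes in all, of which 29 were tested (Ctcfl and Maz were too low). In 8C against 2C 1 rose (16.3% of all genes did) and 5 fell (20.7% of all genes), with a median of -0.08 against -0.04 for all genes. Limma called none in CX22 against 2C (at an unadjusted p under 0.05, 2 were lower and 0 higher) or in CX45 against 8C (6 higher, 0 lower), where 3.89% and 0.665% of all genes were called. Without adjustment 1921 and 2286 of all 11873 genes had a limma p under 0.05 in these comparisons. In CX45 against CX22 3 fell and 0 rose (13.5% and 23% of all genes). In 8C against 2C fewer were called without an 8C library and more without a CX22 library, and the same held over all genes.

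Among factors of loading, release and acetylation, 12 tested, Esco1 was the only call between the stages. It encodes an acetyltransferase that locks the ring by modifying Smc3. From low to high its groups ran 8C, CX45, CX22 and 2C without overlap, whereas 2C and CX22 overlapped for Wapl. Esco1 was at 320.8 and 320.6 FPKM in 2C, 39.3 and 35.8 FPKM in 8C, 263 and 301 FPKM in CX22, and 110.3 and 82.95 FPKM in CX45. It fell from 2C to 8C by -3.06 ± 0.28 (log2, SE; limma adjusted p = 0.00341) and between CX22 and CX45 by -1.55 ± 0.228 (adjusted p = 0.0101). Its paralog Esco2, which acts in S phase, lay between 151.5 and 213 FPKM in all 8 libraries and was not called (8C against 2C, limma adjusted p = 0.192). Pds5b, a partner of Wapl on the ring, was at 6.57 and 6.89 FPKM in 2C and 1.99 and 2.15 FPKM in 8C, and was not called between them (adjusted p = 0.0845). From CX22 to CX45 it fell, from 5.80 and 7.65 FPKM to 1.89 and 1.31 FPKM (log2 -1.57 ± 0.382, limma adjusted p = 0.0337). Cdca5, which encodes sororin, a protector of the closed ring, stayed between 54.8 and 95.9 FPKM. Mau2, the partner of Nipbl, was between 1.72 and 9.95 FPKM.

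Of the 9 genes of cleavage and protection 3 fell from 2C to 8C, where 20.7% of all genes fell. Pttg1, which encodes securin, the inhibitor of the protease that opens cohesin, went from 6086 and 6165 FPKM to 501.6 and 622.5 FPKM, and was at 5544 and 7281 FPKM in CX22 and 2740 and 2856 FPKM in CX45. The change was -3.45 ± 0.314 (log2, SE; limma adjusted p = 0.00339). Sgo1, the shugoshin that guards centromeric cohesin, changed by -2.18 ± 0.345 (adjusted p = 0.0114). It was at 54.2 and 56.7 FPKM in 2C, 12.3 and 10.7 FPKM in 8C, and 44.5 and 29.8 FPKM in CX45. Haspin, a histone kinase of the centromere, fell by 1.45 on the log2 scale (limma adjusted p = 0.0482) from 27.1 and 27.7 FPKM to 10.7 and 8.22 FPKM. It was at 31.3 and 19.2 FPKM in CX22 and 42.5 and 41.6 FPKM in CX45. Unlike for Pttg1 and Sgo1, both CX45 libraries lay above those of 2C, without a call. Espl1, the protease itself, was low in all libraries, from 2.28 to 5.19 FPKM.

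The germ-line kleisin gene Rad21l was at 4.16 and 4.41 FPKM in 2C and listed at 0 in both 8C libraries. It passed the filter only with the help of the 2C libraries, where it was high, so its call as fallen (limma adjusted p = 0.0435), 1 of the 5 above, supports nothing. In the looping list Zfp143, a zinc-finger factor found at promoter anchors, rose from 8.15 and 8.94 FPKM in 2C to 27.8 and 36.6 FPKM in 8C (log2 1.79 ± 0.435, limma adjusted p = 0.0342). Yy1, which bridges promoters and enhancers, was at 67.7 and 63.6 FPKM and at 70.7 and 57.4 FPKM. Ctcfl, the germ-line paralog of Ctcf, did not exceed 1.04 FPKM in any library.

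**Figure D5:**
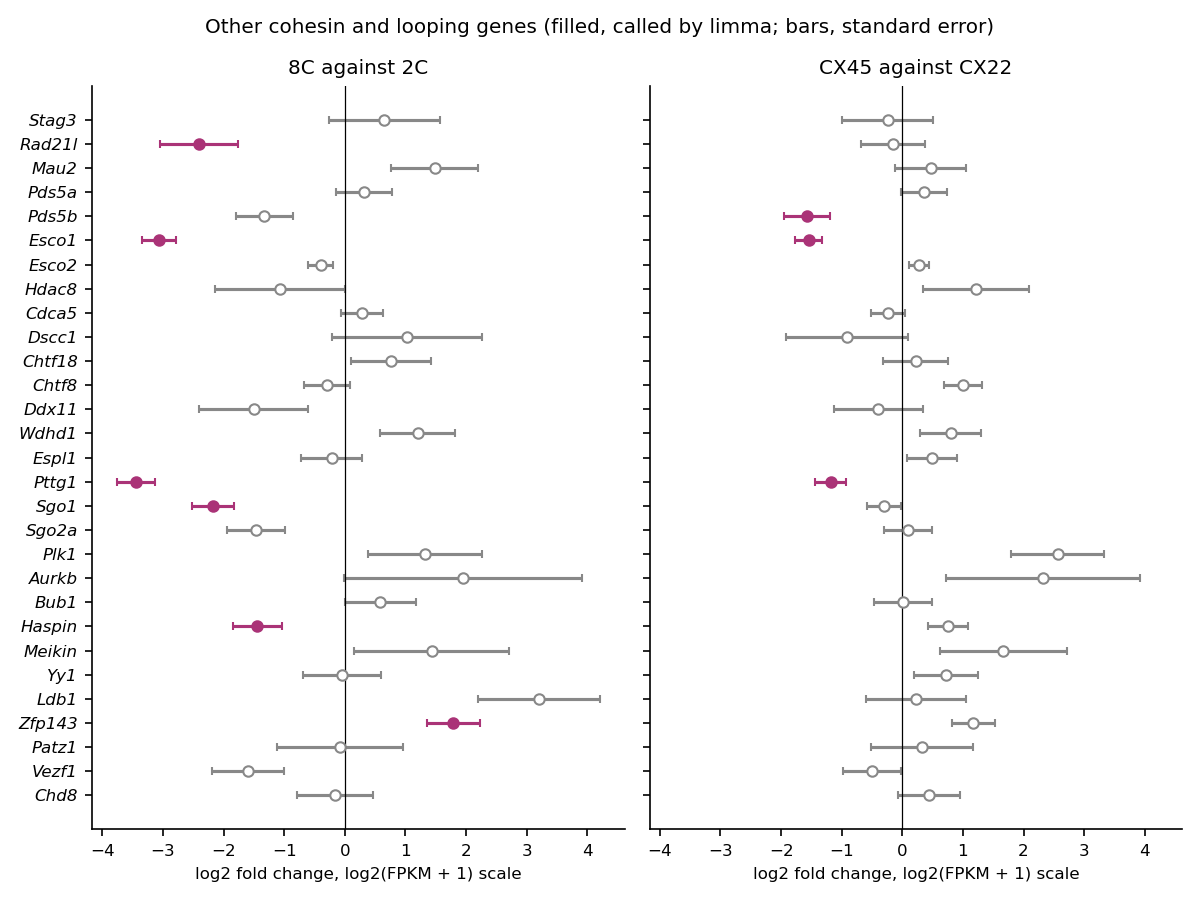
Log2 fold change, on the scale of log2(FPKM + 1), of the 29 tested genes of the 4 lists in 8C against 2C (left) and CX45 against CX22 (right), with standard errors and calls filled. Rad21l, Esco1, Pttg1, Sgo1 and Haspin are filled to the left of 0 and Zfp143 to the right in the left panel, and Pds5b, Esco1 and Pttg1 are filled to the left of 0 in the right panel.

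For each member the genes with the most similar profile were sought among 6028 genes with a mean of at least 5 FPKM, by the mean absolute difference of log2(FPKM + 1) over the 8 libraries after centring each gene on its mean. Near to Wapl were Zfp944 (0.16) and Cntln (0.16). Nearest to Ctcf were Camk2g (0.11), Rhot1 (0.11) and Fbrsl1 (0.12), and nearest to Rad21 was Nap1l1 (0.06). Smc3 was matched most closely by Prkcz (0.12) and by Supt16 (0.13), Stag2 by Nol11 (0.14), Smc1a by Kansl1 (0.17) and Smc1b by Pabpn1 (0.22). Nearest to Nipbl was Rps6kb1 (0.10) and to Stag1 Rpa1 (0.15). No member was among the 3 nearest genes of another.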

How the data were processed

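Per the labels' protocols, embryo RNA was reverse transcribed, amplified and made into Smart-seq libraries that were read on a BGISEQ500 machine. Per the submitters' processing notes, HISAT2 (listed as 4.8.2), Cufflinks 2.2.1 and build mm9 were used; the sources used here give neither settings nor annotation release. The deposited values are FPKM, made by the authors, 1 per RefSeq entry and library, with replicates kept apart. Of 41876 entries 41685 matched a symbol, and the other 191 were kept under their accessions. Entries were summed per gene. Depth was read from the steps between low FPKM values (64.2% to 69.6% within 0.05 of a whole fragment) and covers counting error only. Locus starts were counted from 0 in the table.

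Values were log2(FPKM + 1) for genes that reached 1 FPKM in at least 2 libraries. The 4 groups entered a single fit in limma 3.58.1 (R 4.3.3), moderated along a trend on mean expression, over 7 samples with 3 residual degrees of freedom, the mean of the 2C libraries being 1 sample whose spread was taken from the other groups. Tests were two-sided. Alternatives were a pseudocount of 0.1, no filter, quantile normalization, the highest entry per gene, 8 separate libraries, a replicate block and each library left out. The highest entry was the one with the highest mean over the 8 libraries, and it was used in every library. Same-numbered libraries did not deviate together in every pair of groups (correlations from -0.001 to 0.105 over genes), so no block was used. The fit was tested on simulated data. Named genes were all members, pathway genes called in 4 comparisons or described for their role, and the nearest profiles. The members and lists were chosen with earlier results of these data known.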

Additional observations from a re-analysis of the deposited data

How the results depend on the processing

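Of 834 member values recomputed under alternatives, 728 kept direction and side of the threshold, 61 lost a call, 17 gained one and 28 changed sign. Many of the 728 could not change direction. Leaving out a library outside the 2 groups compared leaves the log2 change as it was, and Rec8 was at 0 in both groups of some comparisons. A value that changed sign was counted as that alone, also where it gained a call (Stag2, CX22 against 2C, highest entry). Counts of members here include Rec8, except with the highest entry per gene, where Rec8 did not pass the filter and was not tested. With 8 separate libraries, the members called became 6 in 8C against 2C and 2 in CX45 against 8C, and all genes called 6697, 1616 (CX22 against 2C), 1037 (CX45 against 8C) and 6109 (CX45 against 2C). With the replicate block limma called 0 members and 0 genes in CX45 against 8C (3 and 2094 at an unadjusted p under 0.05) and 131 genes in CX22 against 2C. No filter and quantile normalization also gave 0 members and 0 genes in CX45 against 8C (3 members each, 2700 and 1814 genes unadjusted), quantile normalization 261 genes in CX22 against 2C, and a pseudocount of 0.1 gave 184 in CX45 against 8C, where 79 were called. The highest entry per gene gave 1 member in CX22 against 2C, 0 in CX45 against 8C (1 unadjusted) and 2 in CX45 against 2C.

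Sign changes on the log2 scale with the highest entry were Stag1 at 2.28 (8C against 2C), 2.26 (CX22 against 2C), 0.27 (CX45 against CX22), 2.53 (CX45 against 2C) and -0.016 (CX22 against 8C), Stag2 at -2.74 (CX22 against 2C) and Ctcf at -1.68 (CX45 against 8C). With quantile normalization they were Smc3 at 0.0105 (CX22 against 2C), Smc1a at -4e-04 and Stag1 at -0.22 (CX45 against 8C), and Rad21 at -0.32 (CX45 against CX22), -0.11 (CX45 against 2C) and 0.18 (CX22 against 8C). The cause was not tested.

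Leaving out 1 library at a time, members called ranged from 1 to 6 (8C against 2C), 0 to 1 (CX45 against 8C), 2 to 5 (CX45 against CX22), 1 to 4 (CX45 against 2C) and 1 to 7 (CX22 against 8C). Genes called ranged from 1417 to 5622, 0 to 79 (CX45 against 8C, 1238 to 3218 unadjusted where 0), 2451 to 4608, 1502 to 4928 and 1871 to 5175 in the same order, and 223 to 1113 in CX22 against 2C. Uncalled members that changed sign ranged, in CX22 against 2C, from -0.46 to 1.06 (Smc1b), -0.55 to 0.35 (Smc3), -0.023 to 0.46 (Rad21), -1.003 to 0.57 (Stag1), -0.23 to 0.27 (Wapl), -1.03 to 0.17 (Nipbl) and -0.0027 to 0.47 (Ctcf). In CX45 against 8C they ranged from -0.0191 to 0.62 (Smc1a), -0.19 to 0.0814 (Rad21), -0.18 to 0.83 (Stag1) and -0.33 to 0.0747 (Stag2), and in CX45 against CX22 from -0.79 to 0.73 (Smc1b) and -0.79 to 0.41 (Nipbl).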
